A study of Mus musculus with 16 samples.

Results

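The dystrophin-associated protein complex was followed through its core genes Dmd, Dag1, Sgca, Sgcb, Sgcd and Dtna, together with Utrn, the autosomal paralog of dystrophin and a reported target of miR-206. The genes were chosen by name, and all 7 were found among the 35275 genes measured. Dystrophin joins the actin cytoskeleton beneath the muscle membrane to dystroglycan, which binds laminin outside the cell. The sarcoglycans brace that link within the membrane, and dystrobrevin and the syntrophins attach to its inner face. Utrophin can take dystrophin's place in the complex; it predominates in immature muscle and is later held to the neuromuscular and myotendinous junctions, which is why its control is studied in dystrophin-deficient muscle.

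Messenger RNA was measured in 16 libraries of C2C12, an established mouse myoblast line that forms myotubes once serum is lowered, in a study of how the miR-206 family bears on mitochondria, muscle function and myogenesis. All libraries came from PAX7-negative C2C12 cells, from 2 control lines labelled wild type and 2 clones, called tKO, in which 3 microRNA genes are knocked out: miR-1a-1, miR-206 and miR-1a-2. Growth medium (GM) held 20% fetal bovine serum, and day 3 of differentiation (DM3) followed an exchange to 2% horse serum. Genotype and stage thus give 4 groups of 4 libraries, each group made of 2 lines with 2 cultures each. The tKO genotype thus rests on 2 clones, the agent used to delete the microRNA genes was not given in the sources used here, and p-values cover only the spread between these libraries. Levels are FPKM, fragments per kilobase of gene length and scaled to the library's total, so that genes can be compared per length. Depth was 22642563 to 56585952 fragments per library.

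The summed level of 8 differentiated muscle markers, among them Myog, Ckm and Acta1, was 9.21 to 12.7 FPKM in control GM, 10.8 to 73.4 in tKO GM and 858 to 1372 in control DM3. In tKO DM3 it split by culture: the first cultures stood at 1408 in clone 1 and 1447 in clone 2, the second cultures at 342 in clone 1 and 481 in clone 2. All 8 markers were lower in the second than in the first culture of both clones, and 5 of 8 were then below every control DM3 library. The sum is carried mostly by Acta1, Mylpf and Tnnt3, and 4 of the 8 had a higher mean in tKO DM3 than in control DM3, among them Myog (12.96 against 5.96 FPKM) and Myh3 (45.1 against 12.7). The highest tKO GM sum was nearly all Acta1 (72.1 FPKM). Differentiated muscle markers were thus present in all DM3 libraries, whereas summed adipocyte, osteoblast, endothelial and Schwann cell markers did not pass 0.435 FPKM in any library. Summed fibroblast markers ranged from 22.2 to 62.4 FPKM in GM and from 63.0 to 246 in DM3, mostly Ly6a, with Lum and Thy1 near 0. Smooth muscle markers summed to 19.4 to 32.6 FPKM, by group mean mostly Smtn, with Myh11 near 0. Cnn1 reached 15.9 FPKM in tKO GM, with a mean of 7.70 there against 2.68 in control GM, where Smtn averaged 16.5 and 20.4 in the same order. Leukocyte markers summed to 0.691 to 4.06 FPKM, nearly all Cd68. Proliferation markers (Mki67, Top2a, Ccnb1 and Cdk1) summed to 234 to 287 FPKM in control GM and 178 to 297 in tKO GM. In DM3 these summed to 69.0 to 85.0 FPKM in control and 28.5 to 93.8 in tKO. Fewer differentiated cells and less RNA per cell cannot be told apart in bulk samples. The row that hosts the miR-206 precursor (listed as mmu-mir-133b) in DM3 libraries read 0.293 to 3.40 FPKM in the controls and 0.0957 to 0.925 in the clones. That row covers more than the deleted sequence and does not check the deletion.

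The sequences shown are those on which the report of Utrn as a target would turn. The first is the mature miR-206-3p (RefSeq, GRCm38.p6, chr1:20679055-20679076, plus strand), with its seed, bases 2 to 8, in capitals. Below it is the one stretch in the 3′ UTRs of the 7 genes that pairs with that whole seed. It lies in the 3′ UTR of the transcript Utrn-201 (chr10:12383774-12383802, minus strand, GRCm38), with the 7 matching bases in capitals.
miR-206-3p: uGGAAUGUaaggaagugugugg
Utrn 3′ UTR site: tttacattattACATTCCttctgctgttc

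The Utrn match starts at base 397 of a 3′ UTR of 2000 bases and is the 7-base form ACATTCC. The 8-base form ACATTCCA and the shifted form CATTCCA were not found in it. The longest annotated 3′ UTRs of Dmd (3659 bases), Dag1 (2625), Sgca (307), Sgcb (2746), Sgcd (1710) and Dtna (3934) held none of the 3 forms. Over 10801 tested genes with a 3′ UTR, 18.9% held at least one form and 4.46% the 8-base form, on the transcript strand. A match is a run of letters and was not tested as a binding site.

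**Figure D1:**
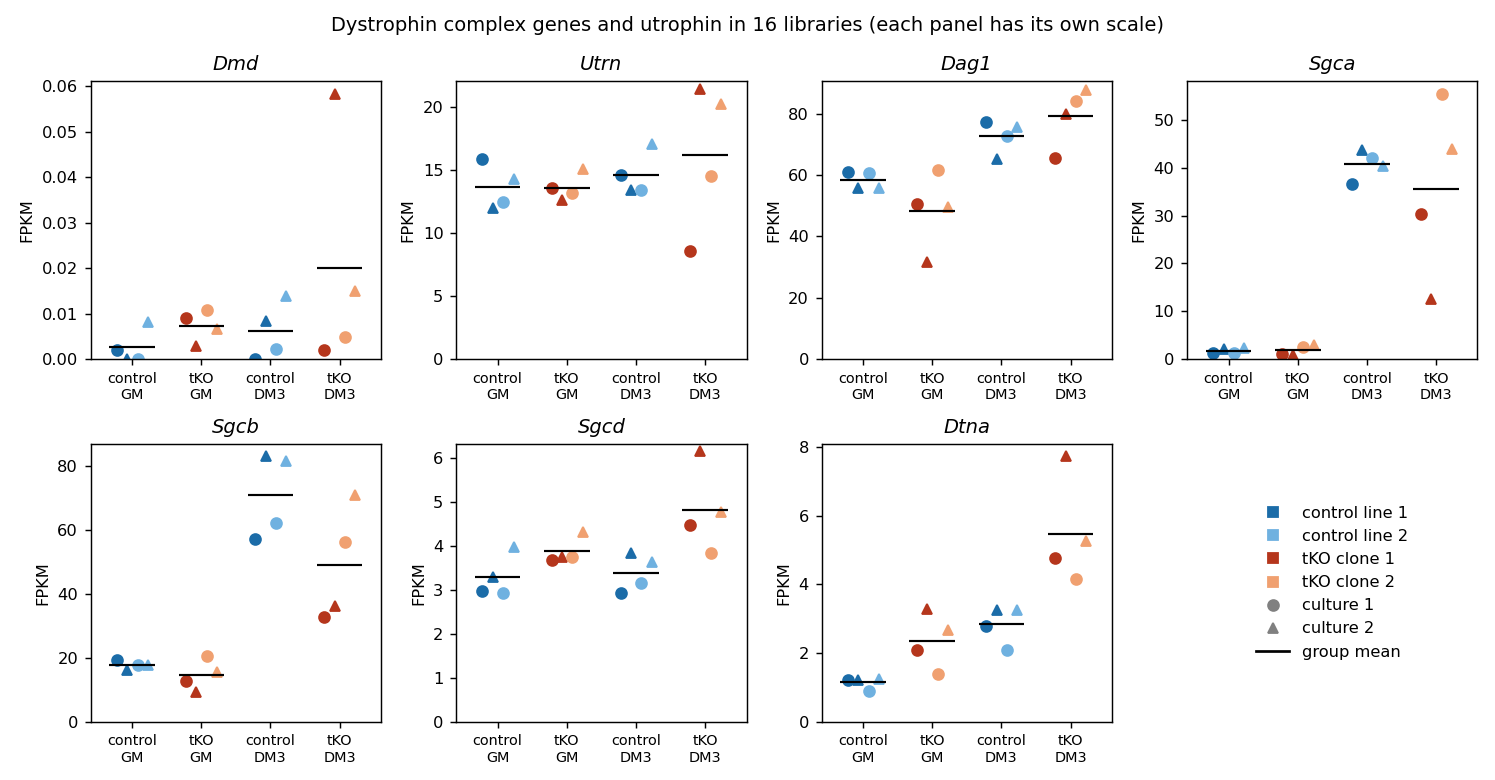
FPKM of Dmd, Utrn, Dag1, Sgca, Sgcb, Sgcd and Dtna in each of the 16 libraries, by group, with control lines in blue, tKO clones in red and orange, first cultures as circles, second cultures as triangles and group means as lines. Dmd stays at or below 0.0583 FPKM, Sgca and Sgcb climb from GM to DM3, and Dtna is the one gene whose tKO points all lie above the control points at both stages.

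Dmd, which encodes dystrophin itself, was close to absent at both stages and in both genotypes. The gene (ENSMUSG00000045103, chrX:82948870-85206141, plus strand) gave 5 fragments over all 4 control GM libraries, 13 in tKO GM, 15 in control DM3 and 35 in tKO DM3. By library, control GM had 1 and 0 fragments in control line 1 and 0 and 4 in control line 2, and tKO GM had 4 and 1 in clone 1 and 5 and 3 in clone 2. After 3 days of differentiation the control lines had 0 and 7 fragments (line 1) and 1 and 7 (line 2), and the clones 1 and 25 (clone 1) and 2 and 7 (clone 2). The highest library, the second clone 1 culture in DM3, reached 0.0583 FPKM, whereas a count of 3 fragments corresponded to 0.00356 to 0.00889 FPKM for this gene. Most libraries therefore sat near the detection limit, and no fold change is given. The tKO minus control difference on the log2(FPKM + 1) scale was 0.0068 in GM (two-sided exact permutation test, n = 4 against 4, p = 0.114, adjusted p = 0.229) and 0.020 in DM3 (p = 0.429, adjusted p = 0.429). The smallest p this design allows is 0.0286. Dmd did not reach the mean of 0.5 FPKM required for the fit across genes, and the other 6 members did.

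Utrn, the paralog (ENSMUSG00000019820, chr10:12382188-12861735, minus strand), was expressed throughout and carried most of the paralog pair's message. Control GM libraries had 15.9 and 12 FPKM in control line 1 and 12.4 and 14.2 FPKM in control line 2. The tKO GM libraries had 13.6 and 12.6 FPKM in clone 1 and 13.1 and 15 FPKM in clone 2. These ranges overlapped almost fully, with means of 13.6 ± 1.80 FPKM in control and 13.6 ± 1.05 in tKO (SD, n = 4 each). The log2 difference was 0.0018 (SE 0.20, limma adjusted p = 0.998), with an interval of 2 SE from -0.40 to 0.40. No difference in Utrn message was detectable in growth medium, and a change smaller than that interval cannot be seen with these libraries.

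After 3 days of differentiation Utrn again did not differ between genotypes, but the clones' libraries spread widely. Control DM3 had 14.6 and 13.4 FPKM in control line 1 and 13.4 and 17 FPKM in control line 2. The tKO DM3 libraries had 8.53 and 21.4 FPKM in clone 1 and 14.5 and 20.2 FPKM in clone 2, so the clones held both the lowest and the highest values of the stage. Means were 14.6 ± 1.73 FPKM in control and 16.2 ± 5.90 in tKO, a log2 difference of 0.067 (SE 0.20, interval -0.33 to 0.47, limma adjusted p = 0.907). Within the first cultures tKO minus control was -0.30 on the log2 scale with overlapping values. Within the second cultures it was 0.44 with both clones above both control lines. How many of all genes separate in this way within a culture is not given here. The second clone cultures are also those with the low muscle marker sums of 342 and 481 FPKM, and the part of this in the Utrn values was not tested. The DM3 minus GM change of Utrn did not pass, at 0.095 in control (adjusted p = 0.703) and 0.16 in tKO (adjusted p = 0.508, limma). The tKO value depended on clone 1 in DM3: without its first culture the change was 0.42 and passed (adjusted p = 0.0150), and without its second it was 0.0077 (adjusted p = 0.978).

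Because FPKM is per length, the paralogs can be set side by side within a library. The log2 ratio of Utrn to Dmd, with 0.1 FPKM added to each, was 7.06 ± 0.17 in control GM, 6.99 ± 0.11 in tKO GM, 7.11 ± 0.13 in DM3 controls and 7.02 ± 0.44 in DM3 clones (SD, n = 4 each). In tKO DM3 it ran from 6.40 to 7.46. Dmd lay below the constant added in every library, so the ratio follows Utrn and the constant and carries little of Dmd. With 1 FPKM added the means were 3.86, 3.85, 3.95 and 4.0 in the same order.

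**Figure D2:**
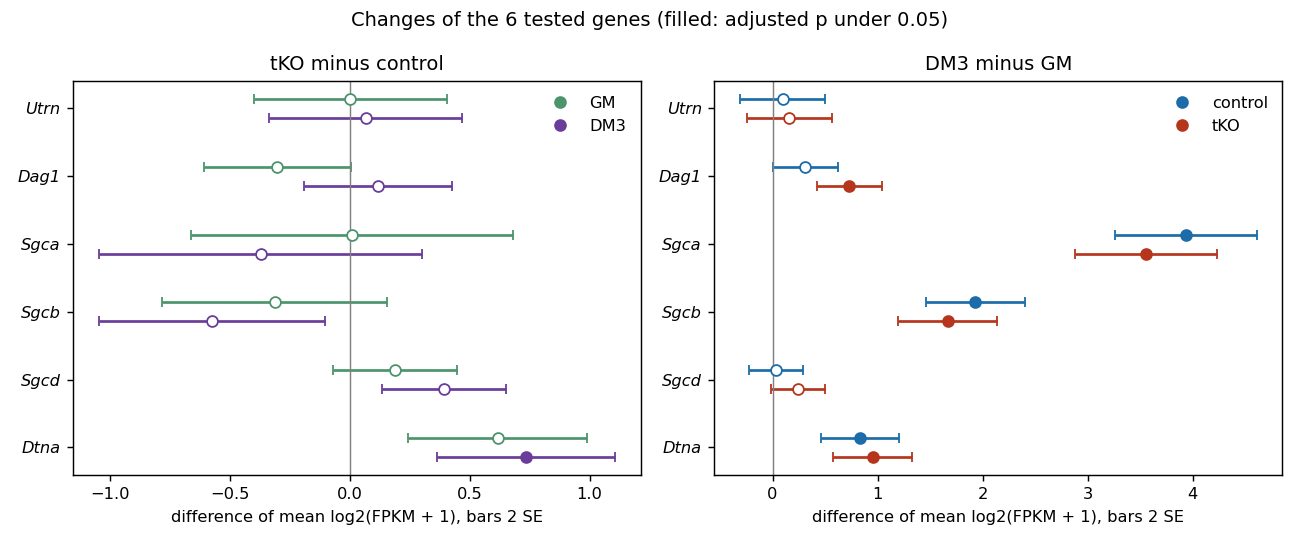
Differences of mean log2(FPKM + 1) for the 6 genes tested with limma, tKO minus control on the left (GM green, DM3 purple) and DM3 minus GM on the right (control blue, tKO red), with bars of 2 SE and filled points for adjusted p under 0.05. Dtna in DM3 is the only filled point on the left, and Sgca, with changes of 3.93 and 3.55, lies farthest to the right.

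The laminin receptor of the complex, dystroglycan, was its most abundant message. Dag1 (ENSMUSG00000039952, chr9:108205955-108263924, minus strand), whose product is cut into an outer laminin-binding part and a membrane-spanning part, had 61.1 and 55.6 FPKM in control line 1 and 60.7 and 55.9 FPKM in control line 2 in control GM. The tKO GM libraries had 50.5 and 31.8 FPKM in clone 1 and 61.7 and 49.5 FPKM in clone 2, with the second clone 1 culture far below the rest and clone 2 reaching the control range. The log2 difference of -0.30 (SE 0.15) did not pass (limma adjusted p = 0.325). In DM3 the control lines had 77.1 and 65.2 FPKM in control line 1 and 72.8 and 75.7 FPKM in control line 2. The clones had 65.4 and 80 FPKM in clone 1 and 84 and 87.8 FPKM in clone 2 in DM3, overlapping the controls, with a log2 difference of 0.12 (SE 0.15, adjusted p = 0.752). Dag1 rose on differentiation in tKO cells, by 0.73 (SE 0.15, adjusted p = 0.000605). In control cells the change was 0.31 (SE 0.15, adjusted p = 0.0881), which did not pass, although it did with median-of-ratios scaling (0.51, adjusted p = 0.00665) and with the control libraries fitted alone (adjusted p = 0.00570). The difference between these 2 changes, 0.42 (SE 0.22), did not pass the interaction test (adjusted p = 0.508).

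Of the sarcoglycans, the membrane proteins that bind beside dystroglycan, Sgca and Sgcb rose steeply on differentiation and Sgcd did not. Sgca, alpha-sarcoglycan (ENSMUSG00000001508, chr11:94962791-94976327, minus strand), is largely restricted to striated muscle. It stood at 1.29 and 2.08 FPKM in control line 1 and 1.32 and 2.35 FPKM in control line 2 in control GM. By DM3 the control lines had reached 36.6 and 43.7 FPKM in control line 1 and 42.1 and 40.5 FPKM in control line 2, a change of 3.93 on the log2(FPKM + 1) scale (SE 0.34, limma adjusted p = 8.46e-08). The clones went from 1.14 and 0.948 FPKM in clone 1 and 2.51 and 2.86 FPKM in clone 2 in GM to 30.4 and 12.5 FPKM in clone 1 and 55.4 and 43.9 FPKM in clone 2 in DM3, a change of 3.55 (SE 0.34, adjusted p = 2.24e-07). Every DM3 library lay above every GM library. The share of all genes whose stages separate in this way is not given here, so the separation does not by itself set Sgca apart. Between genotypes Sgca differed by 0.0092 in GM (SE 0.34, adjusted p = 0.994) and by -0.37 in DM3 (SE 0.34, adjusted p = 0.628), with overlapping values at both stages.

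Sgcb, beta-sarcoglycan (ENSMUSG00000029156, chr5:73632749-73647713, minus strand), forms the assembly core together with delta-sarcoglycan. In control GM it had 19.2 and 16.1 FPKM in control line 1 and 17.6 and 17.8 FPKM in control line 2. In control DM3 it had 56.9 and 83.1 FPKM in control line 1 and 62 and 81.6 FPKM in control line 2, a rise of 1.93 (SE 0.23, limma adjusted p = 3.34e-06). The tKO libraries had 12.9 and 9.29 FPKM in clone 1 and 20.6 and 15.4 FPKM in clone 2 in GM. They had 32.8 and 36.1 FPKM in clone 1 and 56.3 and 70.8 FPKM in clone 2 in DM3, a rise of 1.67 (SE 0.23, adjusted p = 1.41e-05). The tKO minus control difference was -0.31 in GM (SE 0.23, adjusted p = 0.531) and -0.57 in DM3 (SE 0.23, adjusted p = 0.221), neither past the threshold. In DM3 both clones lay below both control lines within each culture (-0.46 log2 in the first, -0.69 in the second), but clone 2 in its second culture exceeded the controls' first cultures. The share of all genes so separated within a culture is not given here, so this does not by itself set Sgcb apart.

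For Sgca and Sgcb the 2 clones stood at different levels. Clone 1 alone was below both control lines for Sgcb, at a mean of 34.4 FPKM against 70.9 in DM3 (log2 difference -1.0), and for Sgca, at 21.4 against 40.7 (-1.02), with no overlap in either gene. In clone 2, Sgcb averaged 63.5 FPKM (-0.15, overlapping the controls) and Sgca 49.7 (0.27, all values above the controls). The share of all genes in which the 2 libraries of a clone lie apart from the controls is not given here. The lack of overlap for a clone therefore does not by itself set Sgca or Sgcb apart. With clone 2 left out, the limma fit called Sgcb lower in tKO at both stages (adjusted p = 0.0302 in GM and 0.00322 in DM3) and Sgca lower in DM3 (adjusted p = 0.0313). With clone 1 left out neither was called (Sgcb adjusted p = 0.991 in GM and 0.679 in DM3, Sgca 0.315 and 0.387). The Sgca and Sgcb calls without clone 2 thus rested on clone 1, and the clones were not tested against each other. Leaving out clone 2 also raised the calls over all 11832 genes, to 1315 in GM and 1136 in DM3. The main fit called 244 and 400, and leaving out clone 1 gave 179 and 565. The calls without clone 2 therefore do not set Sgca and Sgcb apart.

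Sgcd, delta-sarcoglycan (ENSMUSG00000020354, chr11:46896253-47988969, minus strand), stayed at a low level across the study. Control GM libraries had 2.97 and 3.29 FPKM in control line 1 and 2.92 and 3.99 FPKM in control line 2, and control DM3 libraries 2.94 and 3.84 FPKM in control line 1 and 3.15 and 3.64 FPKM in control line 2. The tKO libraries had 3.69 and 3.76 FPKM in clone 1 and 3.76 and 4.33 FPKM in clone 2 in GM. In DM3 the clones had 4.48 and 6.17 FPKM in clone 1 and 3.84 and 4.78 FPKM in clone 2, and only the lowest of them fell within the control range. The genotype difference was 0.19 in GM (SE 0.13, limma adjusted p = 0.478) and 0.39 in DM3 (SE 0.13, adjusted p = 0.114). The change on differentiation was 0.035 in control (SE 0.13, adjusted p = 0.832) and 0.24 in tKO (SE 0.13, adjusted p = 0.119). With median-of-ratios scaling the tKO change, 0.37, passed (adjusted p = 0.0124). Without the first DM3 culture of clone 2, Sgcd passed both for the tKO change on differentiation (0.32, adjusted p = 0.0459) and for the genotype difference in DM3 (0.48, adjusted p = 0.0477).

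**Figure D3:**
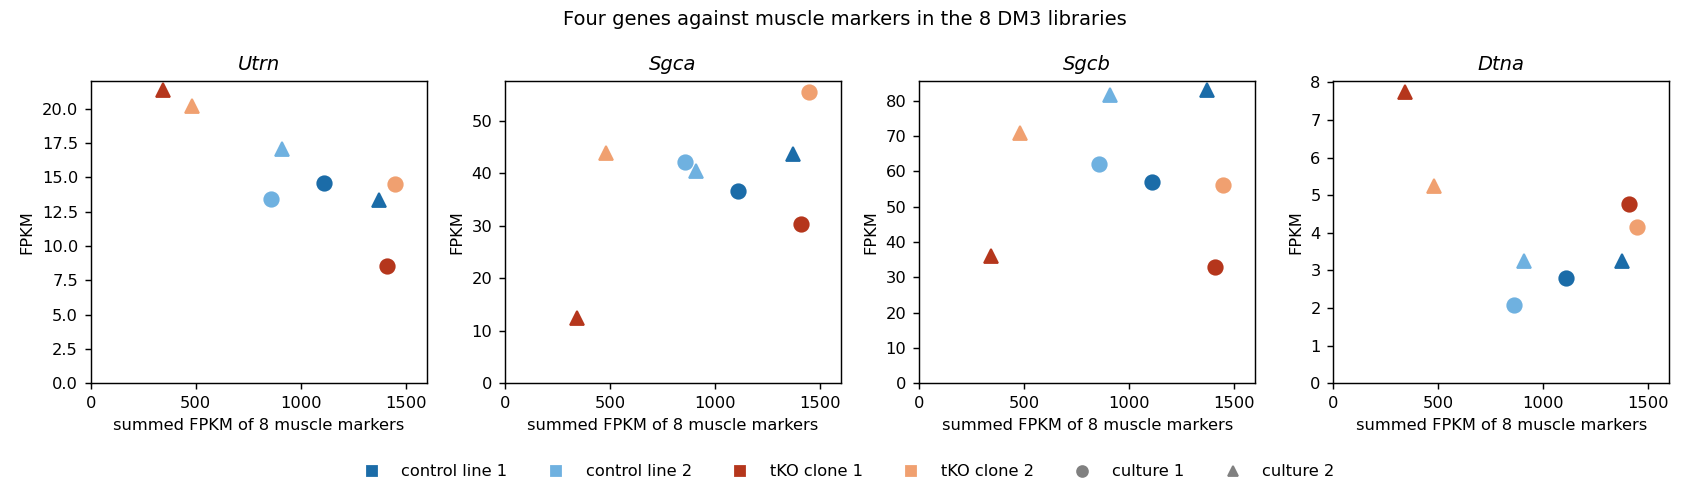
FPKM of Utrn, Sgca, Sgcb and Dtna against the summed FPKM of 8 muscle markers in the 8 DM3 libraries, coloured by line and shaped by culture. The second clone cultures, at 342 and 481 FPKM of marker sum, carry the highest Utrn and Dtna levels, and clone 1 is low for Sgcb at both ends of the marker scale.

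Promoter windows are shown for Sgca and Sgcb because these genes rose together. Each runs from 250 bases before to 50 bases after the annotated start (RefSeq, GRCm38.p6, minus strand), with nothing in capitals, at chr11:94976278-94976577 for Sgca and chr5:73647688-73647987 for Sgcb.
Sgca promoter: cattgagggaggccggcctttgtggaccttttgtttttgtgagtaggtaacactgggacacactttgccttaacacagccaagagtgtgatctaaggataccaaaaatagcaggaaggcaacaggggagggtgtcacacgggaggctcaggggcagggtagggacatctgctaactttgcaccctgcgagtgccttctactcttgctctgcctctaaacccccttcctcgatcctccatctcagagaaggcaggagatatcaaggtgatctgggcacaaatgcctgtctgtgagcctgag
Sgcb promoter: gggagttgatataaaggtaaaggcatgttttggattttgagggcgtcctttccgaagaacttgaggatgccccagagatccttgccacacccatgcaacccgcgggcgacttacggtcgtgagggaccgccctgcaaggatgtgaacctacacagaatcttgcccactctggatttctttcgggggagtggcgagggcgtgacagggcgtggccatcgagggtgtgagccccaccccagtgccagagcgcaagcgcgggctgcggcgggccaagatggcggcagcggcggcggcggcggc

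Neither window held CAGCTG, an E-box form that reads the same on both strands and is a core recognised by myogenic factors such as MyoD. That motif was in 16.3% of 32851 windows of this length. CATTCC, the MCAT core, searched on both strands, was in 14.7% of windows and, of the 6 members matched in the promoter set, in Sgcd alone. None of the 6 held CAGCTG. The lack of a run of letters in these windows says nothing about the factors.

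Dtna, which encodes alpha-dystrobrevin, a cytoplasmic protein that binds dystrophin, utrophin and the syntrophins, was the only member called between genotypes. The gene (ENSMUSG00000024302, chr18:23415415-23659714, plus strand) had 1.23 and 1.23 FPKM in control line 1 and 0.887 and 1.23 FPKM in control line 2 in control GM. The tKO GM libraries had 2.08 and 3.27 FPKM in clone 1 and 1.39 and 2.69 FPKM in clone 2. In DM3 the control lines had 2.79 and 3.26 FPKM in control line 1 and 2.08 and 3.25 FPKM in control line 2. The clones in DM3 had 4.76 and 7.75 FPKM in clone 1 and 4.15 and 5.25 FPKM in clone 2. All 4 tKO libraries exceeded all 4 control libraries at each stage, in both clones and within both cultures. Group means went from 1.14 ± 0.17 FPKM in control to 2.36 ± 0.81 in tKO in GM, and from 2.84 ± 0.55 to 5.48 ± 1.58 in DM3 (SD, n = 4 each). On the log2(FPKM + 1) scale tKO minus control in DM3 came to 0.74 (SE 0.19, limma adjusted p = 0.0375), higher in 4 of 4 libraries. In GM it was 0.62 (SE 0.19) and did not pass (adjusted p = 0.0974).

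The DM3 call of Dtna sat close to the threshold. Of 22 alternative fits, 9 kept it and 13 lost it, with adjusted p from 0.00636 to 0.448 and the same direction in all. It was lost with a pseudocount of 0.1 (adjusted p = 0.0659), without the filter on low genes (0.0704), with the DM3 libraries fitted alone (0.121) and with line averages as units (0.0797). It was lost as well when any of the 4 control DM3 libraries, the second culture of either clone, either control line or clone 1 was left out. Over all genes the main fit called 400 in DM3, the fits without control line 1 or 2 called 49 and 64, and the fit without clone 1 called 565. In GM, Dtna was called without the first culture of clone 2 (adjusted p = 0.0213) or without clone 2 (0.0316). Those fits called 749 and 1315 of all genes tested, against 244 in the main fit. Fits with culture number as replicate block called Dtna in GM too, as given below. Dtna also rose on differentiation, by 0.83 in control (SE 0.19, adjusted p = 0.00102) and by 0.95 in tKO (SE 0.19, adjusted p = 0.000328). Without control line 1 the first of these no longer passed (0.82, adjusted p = 0.0521). The interaction of genotype and stage was 0.12 (SE 0.26, adjusted p = 0.904). In tKO DM3, Dtna was highest in the second cultures, which had the low muscle marker sums, and the part of differentiation in the Dtna values was not tested. Within the first cultures, with marker sums of 1408 and 1447 FPKM in the clones, tKO minus control was 0.67.

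Counted over the 6 tested members, limma called 0 of 6 between genotypes in GM, against 2.06% of the 11832 genes tested. In DM3 it called 1 of 6, against 3.38% of genes. Without the adjustment, 2076 genes in GM and 1990 in DM3 had p under 0.05, of which the members gave Dtna in GM and Dtna, Sgcb and Sgcd in DM3. Dtna was also the 1 member of 6 whose groups did not overlap, where 14% of genes in GM and 8.52% in DM3 had groups that did not overlap. The interaction called 0 of 6, against 0.254% of genes, with 1278 genes under an unadjusted p of 0.05 and no member among them.

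Differentiation called more. In control cells Sgca, Sgcb and Dtna rose, 3 of 6, with none lower, against 23.2% of all genes higher and 38.3% lower. In tKO cells Sgca, Sgcb, Dtna and Dag1 rose, 4 of 6, with none lower, against 24.9% of genes higher and 36% lower. Much of the transcriptome changed, so a call as such sets no gene apart. With median-of-ratios scaling the split over all genes was 30.5% higher and 30.7% lower in control and 30.2% and 30.3% in tKO, and the median change of all genes moved from -0.15 to 0.0097 in control and from -0.12 to 0.0064 in tKO. Sgca, Sgcb and Dtna were called higher under both scalings in both genotypes.

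By level per length, the order in control GM was Dag1, Sgcb, Utrn, Sgcd, Sgca, Dtna and Dmd. In control DM3 it was Dag1, Sgcb, Sgca, Utrn, Sgcd, Dtna and Dmd, so Sgca moved from the fifth place to the third. In control GM the neighbours Sgca and Dtna came close, at 1.29 and 1.23 FPKM in their nearest libraries. In tKO GM Dtna (1.39 to 3.27 FPKM) overlapped Sgca (0.948 to 2.86) with the higher mean. In control DM3 Dag1 (65.2 to 77.1 FPKM) overlapped Sgcb (56.9 to 83.1), and Sgcd (2.94 to 3.84) overlapped Dtna (2.08 to 3.26). In tKO DM3 Dtna (4.15 to 7.75) overlapped Sgcd (3.84 to 6.17) with the higher mean. Utrn in tKO DM3 (8.53 to 21.4 FPKM) overlapped Sgca (12.5 to 55.4).

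**Figure D4:**
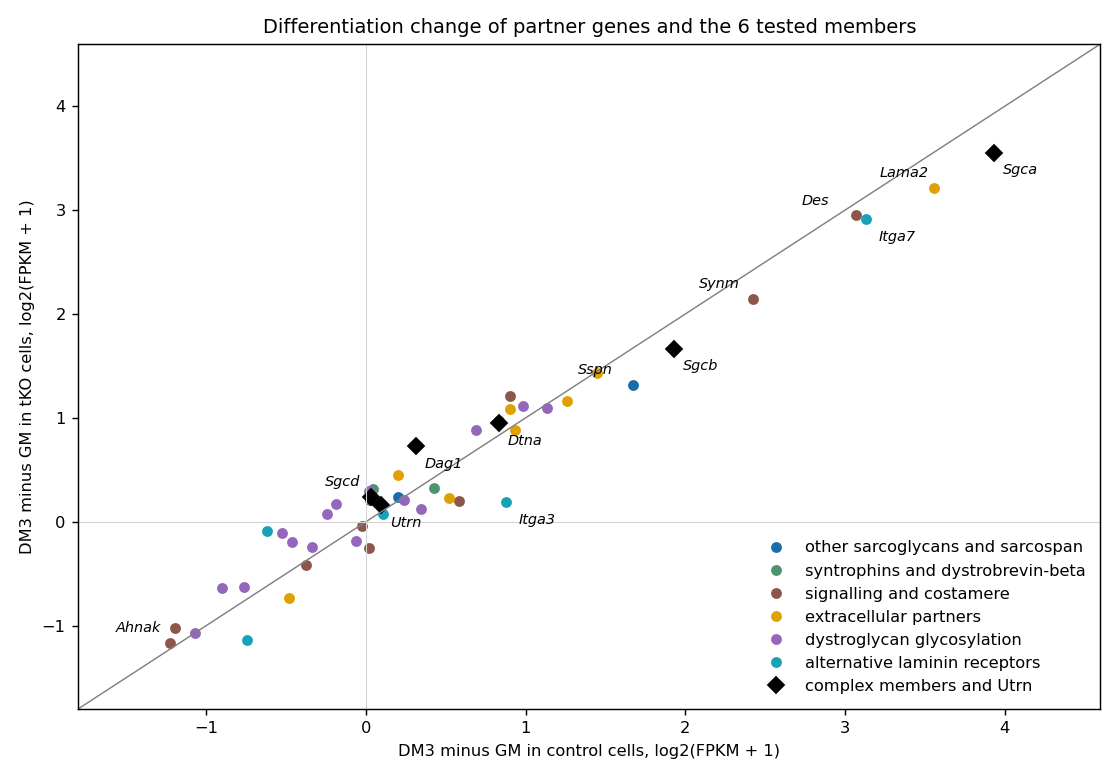
DM3 minus GM change of log2(FPKM + 1) in control cells (horizontal) and tKO cells (vertical) for tested partner genes coloured by list and the 6 tested members as black diamonds, with the line of equal change. Sgca, Lama2, Itga7 and Des lie together above 2.9 on both axes.

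Genes that work with the complex were followed in 6 lists of 57 genes, 46 of which passed the filter. On differentiation of control cells 21 of the 46 rose and 12 fell, where 23.2% of all genes were called higher and 38.3% lower, with a median change of 0.20 against -0.15 for all genes. In tKO cells 18 rose and 9 fell, where 24.9% of all genes were higher and 36% lower, with a median of 0.21 against -0.12. Sspn, sarcospan, rose by 1.67 in control (SE 0.17, limma adjusted p = 4.78e-07) and by 1.32 in tKO (SE 0.17, adjusted p = 5.31e-06). Sntb2, a syntrophin, rose by 0.43 in control (SE 0.14, adjusted p = 0.0133), and in tKO its change of 0.33 (SE 0.14) did not pass (adjusted p = 0.0501).

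Against the same shares over all genes, the lists read as follows. Outside the cell, 6 of 8 ligands of dystroglycan and related matrix genes rose in control DM3 and 1 fell. The muscle laminin chain Lama2 changed by 3.56, the synaptic organiser Agrn by 1.44 and Lamb2 by 1.26. Among 11 signalling and costamere genes, 5 rose and 2 fell in control, with the intermediate filament genes Des (3.07) and Synm (2.42) up and Ahnak (-1.23) down. The 16 tested enzymes that build dystroglycan's laminin-binding sugar were mixed, 4 up and 7 down, with B3gnt1 (B4gat1) at 1.14 and Dpm2 at -1.07. Of 5 alternative laminin receptors, Itga7 (3.13) and Itga3 (0.88) rose and Itga6 (-0.74) was among 2 that fell. In tKO cells the counts up and down were 4 and 3 for the signalling list, 6 and 1 for the matrix list, 3 and 4 for the enzymes and 1 and 1 for the receptors.

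Between genotypes, limma called 1 of the 46 partners at each stage and none in the interaction, where the share over all genes was 2.06% in GM, 3.38% in DM3 and 0.254% in the interaction. This is near the background. Sspn, which sits beside the sarcoglycans, was lower in tKO DM3, at 12.9 ± 3.29 FPKM against 26.0 ± 1.38 in control (SD, n = 4 each; log2 difference -0.98, SE 0.17, limma adjusted p = 0.00335). All 4 tKO libraries (9.93 to 16.4 FPKM) lay below all 4 control libraries (24.6 to 27.8). In DM3, 8.52% of tested genes had groups that did not overlap. In GM the Sspn difference was -0.63 (adjusted p = 0.0612). With line averages as units the DM3 call was lost (adjusted p = 0.104), as it was without control line 1 (0.148) or control line 2 (0.146). Over all genes these fits called 131, 49 and 64 in DM3, against 400 in the main fit. Itga3, an integrin chain that pairs with Itgb1 to bind laminin, was higher in tKO GM, at 50.4 ± 7.18 FPKM against 30.0 ± 2.06 (log2 difference 0.72, SE 0.10, adjusted p = 0.000969). Without control line 1 (adjusted p = 0.129) or control line 2 (0.0861) that call was lost, and with line averages as units it was kept (0.0260). Over all genes the fits without control line 1 or 2 called 33 and 38 in GM, against 244 in the main fit. In DM3 Itga3 did not differ (0.033, adjusted p = 0.911), and its interaction did not pass (-0.69, adjusted p = 0.0635).

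The genes most like each member in Pearson correlation over the 16 libraries, which share lines, cultures and stages, are given as a description. For Utrn they were Lrba (r = 0.94), Asb7 (0.94) and Dock9 (0.90). For Dag1 they were Map1a (0.97), Phf21a (0.97) and Fam20b (0.95). For Sgca they were Tspan3, Mipol1 and Ensa, all at 0.99, and for Sgcb 9530068E07Rik (0.99), Tgfb3 (0.98) and Edil3 (0.98). Sgcd had lower values, with Clu (0.89), Adamts1 (0.86) and Reck (0.84), and Dtna had 9230110C19Rik (0.95), Ccdc104 (0.94) and Abhd3 (0.94). Dmd, with 0 to 25 fragments a library, is too sparse for its leading value (Dlg3, 0.89) to be read. Among the members themselves Sgca and Sgcb were closest (r = 0.95), Utrn had 0.17 with Sgca and 0.32 with Sgcb, and Sgcd and Dtna had 0.77.

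Utrn, Dag1, Sgcb and Dtna overlapped no other listed gene, and the genes overlapping Dmd (3), Sgca (1) and Sgcd (2) did not reach 0.0629 FPKM in their mean over the 16 libraries.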

How the data were processed

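Poly(A)-selected RNA of C2C12 cells was sequenced on an Illumina HiSeq instrument, per the labels' protocols, in 4 groups of 4 libraries taken from the sample titles. The authors deposited FPKM values, 1 column per library, with gene lengths and positions. The submitters' processing notes name mm10, STAR and DESeq without a role. The annotation release and whether counting used the strand are not given in the sources used here. FPKM times gene length gave whole multiples of a step for 100% of values (tolerance 0.01), which yielded fragment numbers, and 3 fragments served as the floor, for counting error only. Library pairs within groups differed beyond sampling noise (chi-square per degree of freedom 19.3 to 236 over 24 pairs).

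The members and partner lists were chosen with earlier results of these data known. Named partners were every gene called between genotypes or in the interaction and, per list, the 3 called genes with the largest change on differentiation of control cells; some of these are not reported here. The 11832 genes whose mean FPKM was 0.5 or more entered a group-means model of log2(FPKM + 1) over all 16 libraries in limma 3.58.1 (R 4.3.3), with trend and robust moderation and Benjamini-Hochberg adjustment, threshold 0.05. Fold changes on this scale understate those of low genes. Dmd, under the filter, was examined by exact permutation (two-sided, 70 arrangements of libraries), adjusted over 2 stages. Coordinates are as the table lists them. Of its gene identifiers 97.8% were in GENCODE M21 (GRCm38), the source of the 3′ UTRs. Sequences of miR-206-3p and the promoters are from RefSeq (GRCm38.p6). Other steps ran in Python 3.11.15 (pandas 2.3.3, scipy 1.17.1, numpy 2.4.6).

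Alternatives were a pseudocount of 0.1, no filter or one of 5 FPKM, median-of-ratios scaling, voom on fragment numbers, line averages, a random effect of line, plain moderation, fits of only the libraries compared, replicate blocks, and leaving out each library or line. The culture numbers in the titles name no shared day. Same-numbered libraries of the 2 genotypes had correlated deviations of 0.0955 to 0.452 in GM and -0.224 to 0.558 in DM3, with means of 0.25 and 0.19. These values do not settle whether the numbers pair the libraries. The main fit used no such pairing, and fits with culture number as replicate block are among the alternatives. The line is shared between stages, where deviations of the same line and culture correlated at 0.0771 to 0.323.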

Additional observations from a re-analysis of the deposited data

Results flagged for a closer look

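Over the 28 sets of 4 libraries (7 genes in 4 groups), 2 held a library far from the other 3 on Dixon's criterion, which chance meets in about 1 of 20 sets. Sgcd in tKO GM had one high library, the second culture of clone 2, at 4.33 FPKM against 3.69 to 3.76 in the other 3 libraries. Dtna in control GM had one low library, the first culture of control line 2, at 0.887 FPKM against 1.23 in each of the others.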

How the results depend on the processing

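Over the members, no called change reversed its direction, and the 33 reversals lay among uncalled changes. The partner lists were compared by numbers of calls and the ratios by group means, so neither could show a reversal. Leaving out 1 library at a time gave tKO minus control changes of -0.054 to 0.073 for Utrn and -0.16 to 0.17 for Sgca in GM, and of -0.086 to 0.32 for Utrn and -0.64 to 0.047 for Sgca in DM3. The same gave interactions of -0.088 to 0.32 for Utrn, -0.65 to 0.038 for Sgca and -0.036 to 0.24 for Dtna, and a DM3 minus GM change in control of -0.013 to 0.11 for Sgcd. Without control line 2 Utrn in GM was -0.022, and without clone 2 it was -0.047 in GM and -0.088 in DM3. Sgca in GM was -0.020 with a pseudocount of 0.1, -0.026 without control line 1 and -0.42 without clone 2, and in DM3 it was 0.27 without clone 1. Sgcb in GM was 0.017 without clone 1, Dag1 in DM3 was -0.0042 without clone 2, and Sgcd in control differentiation was -0.011 without control line 1. The Utrn interaction was -0.012 without control line 1 and -0.042 without clone 2, and the Dtna interaction was -0.025 with a pseudocount of 0.1 and -0.052 with voom. The cause was not tested.

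The number of members called between genotypes in GM, 0, was 1 with either replicate block (Dtna), 2 without clone 2, and 0 to 1 without 1 library. In DM3 the number, 1, was 0 with a pseudocount of 0.1, no filter, only the compared libraries, line averages, or without either control line or clone 1, 2 with either replicate block (Dtna and Sgcd), 3 without clone 2, and 0 to 2 without 1 library. Over all 11832 genes, the fit without clone 2 called 1315 in GM and 1136 in DM3, against 244 and 400 in the main fit. The block on culture number called 336 and 523, and the block within each stage 635 and 748. With the culture number as replicate block the adjusted p was 0.0276 for Dtna in GM (0.0232 with the number taken within each stage), 0.00694 for Dtna in DM3 and 0.0409 for Sgcd in DM3. With line and culture as replicate block no call of a differentiation change was altered. Partners called in DM3, 1, were 2 without the filter and with median-of-ratios scaling and 0 with line averages, and in the interaction 1 without the filter, which tests more genes. The Utrn to Dmd ratio with 1 FPKM added was 3.86 in control GM, 3.85 in tKO GM, 3.95 in DM3 controls and 4.0 in DM3 clones. A filter of 5 FPKM leaves out Sgcd and Dtna, so it gave no count of members. Dmd, at 0 to 25 fragments a library, is limited by depth, and the genotype contrasts by having 2 lines each.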

Other observations

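The nearest protein-coding neighbours of Dmd on the X chromosome were looked up after the values were seen. Only genes with a mean of at least 0.5 FPKM were taken, so that they were expressed follows from the choice. They are Tmem47 before Dmd (mean 9.99 FPKM over the 16 libraries, 3.86 to 17.2) and Tab3 (1.77, 0.480 to 3.02) and Gyk (3.57, 1.58 to 5.82) after it. Tmem47 ends 1851 kilobases before the start of Dmd, and Tab3 begins 368 kilobases beyond its end. Tab3 stood at 2.39 ± 0.23 FPKM in control GM and 0.731 ± 0.226 in control DM3 (SD, n = 4 each), and Tmem47 at 8.54 ± 1.92 and 12.7 ± 3.18. Muscle genes of the same complex rose by DM3 in these libraries while Dmd had 15 fragments in all 4 control DM3 libraries together. The cause of the low Dmd numbers was not tested.

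Lama4, a laminin chain on the partner list that was too low for the filter, was chosen after its values were seen. It had 0.0852 to 0.166 FPKM in control GM and 0 to 0.0107 in tKO GM, and 1.15 to 1.35 FPKM in control DM3 against 0.0103 to 0.197 in tKO DM3. All 4 tKO libraries lay below all 4 control libraries at both stages, in both clones. Of the tested genes, which leave out Lama4, 14% in GM and 8.52% in DM3 had groups that did not overlap. Its tKO GM values were near 0, and its fragment numbers are not given here. The difference was not tested.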
